A study of Mus musculus with 21 samples.

Results

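Ifit1, Ifit2 and Ifit3 were followed as a family across 21 tumor libraries. They were chosen by name, as the 3 probes of a 750-probe mouse panel that bear an Ifit symbol, and all 3 were measured in every library and passed the filter on low values. The libraries are of whole tumors that grew after LLC cells (Lewis lung carcinoma, an established mouse line) were placed in the right flank of male C57BL/6 mice, and RNA was counted on a NanoString panel, in which barcoded probes count RNA molecules without amplification. The groups were 8 tumors of wild-type hosts injected with STING agonist, named as cGAMP in the series description (WT agonist), 4 tumors of hosts homozygous for the TMEM173gt allele injected with PBS (STINGgt sham), and 9 tumors of wild-type hosts injected with PBS (WT sham). The gt (goldenticket) allele carries a single amino acid change and yields no working STING protein, while the implanted LLC cells keep their own Tmem173 gene, so STINGgt sham tumors are mixtures of mutant host cells and unmutated tumor cells. Host age, agonist dose and time of sampling stay out, as not given in the sources used here, and STINGgt hosts given agonist were not analysed here. The labels call the tissue lung although the tumors were grown in the flank, and none of the 4 lung epithelial markers listed for a check is on the panel.

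Ifit genes are a textbook readout of type I interferon. STING, activated by cyclic dinucleotides, works through the kinase TBK1 to switch on the transcription factor IRF3, which drives interferon-beta and can also bind Ifit promoters directly. Secreted interferon then acts through its receptor to activate the transcription factor complex ISGF3, which binds interferon-stimulated response elements in the promoters of Ifit and other interferon-stimulated genes. The proteins are built of tetratricopeptide repeats. IFIT1 binds foreign RNA whose cap lacks ribose methylation and blocks its translation, human IFIT2 binds AU-rich RNA, and human IFIT3 binds IFIT1 and stabilises it.

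The promoters are shown because all 3 members were lower in STINGgt sham than in WT sham tumors, though not equally. The windows searched here differ in matches to letters that interferon factors recognise. A link between these matches and the Ifit values was not tested. The 3 genes lie on chromosome 19, and the RefSeq promoter table of the GRCm38.p6 build matched all 3 by symbol. The files name no genome build. The core of the interferon-stimulated response element was searched as GAAA, any 2 bases and GAAA again, on both strands of the 250 bases before each start. In the sequences, capitals mark a match, here always on the opposite strand. Each is given 5′ to 3′ on the plus strand and ends at the base before the start.
Ifit1, chr19:34640639-34640888, plus strand: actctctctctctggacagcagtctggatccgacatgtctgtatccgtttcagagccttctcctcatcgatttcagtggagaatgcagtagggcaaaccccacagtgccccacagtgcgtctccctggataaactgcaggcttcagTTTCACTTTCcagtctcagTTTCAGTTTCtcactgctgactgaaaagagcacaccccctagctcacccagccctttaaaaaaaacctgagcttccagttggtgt
Ifit3, chr19:34583279-34583528, plus strand: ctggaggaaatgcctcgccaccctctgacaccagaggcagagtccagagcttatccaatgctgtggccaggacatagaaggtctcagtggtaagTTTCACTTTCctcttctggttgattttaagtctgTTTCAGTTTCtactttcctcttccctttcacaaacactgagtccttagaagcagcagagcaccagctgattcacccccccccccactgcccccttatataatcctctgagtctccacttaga
Ifit2, chr19:34550444-34550693, plus strand: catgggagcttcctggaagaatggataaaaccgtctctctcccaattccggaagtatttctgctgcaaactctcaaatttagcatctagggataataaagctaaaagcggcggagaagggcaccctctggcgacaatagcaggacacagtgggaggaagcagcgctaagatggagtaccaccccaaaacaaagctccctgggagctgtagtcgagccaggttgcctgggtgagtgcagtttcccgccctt
The Ifit1 promoter held 2 matches, 104 to 95 and 85 to 76 bases before the start. The Ifit3 promoter also held 2, at 156 to 147 and 122 to 113 bases, and the matched letters were the same pair in both genes. The table gives 2 starts for Ifit2, and neither window held the letters, which says nothing of the promoter outside these windows. Of 32851 promoters of the same length in the table, 2.98% held at least 1 match and 0.180% held 2 or more. Among the 676 promoters of panel genes these shares were 6.80% and 1.63%.

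Near copies can limit which gene a probe counts. Mouse Ifit3b lies near Ifit3, and the promoter sequences of this pair were identical at 99.6% of 260 aligned bases. The Ifit3 probe may count Ifit3b RNA as well, which was not tested, and Ifit3 values are those of the probe. Promoter identity cannot show this, and no probe or transcript sequence was compared. Ifit1 has the relatives Ifit1bl1 and Ifit1bl2, and the second shares its promoter region with Ifit1 on the opposite strand.

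The 21 libraries differed in total signal, between 249154 and 888242 in WT agonist, 225810 and 286507 in STINGgt sham, and 240633 and 299484 in WT sham libraries. Tmem173 itself was present in all groups, at 50.4 ± 12.8 in STINGgt sham (SD, n = 4) and 54.2 ± 11.1 in WT sham (SD, n = 9). The gt allele leaves a transcript that the probe can count, and the genotype labels are therefore unchecked by it. Whether every library is from its own mouse is not in the labels, and the p-values describe the spread between samples, which may be technical. Fewer cells of a type and less RNA per cell cannot be told apart in whole tumors. WT agonist replicates 6, 7 and 8 are the only 3 libraries deposited with 2 decimals, and the Ifit results against them are given with and without these libraries.

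**Figure D1:**
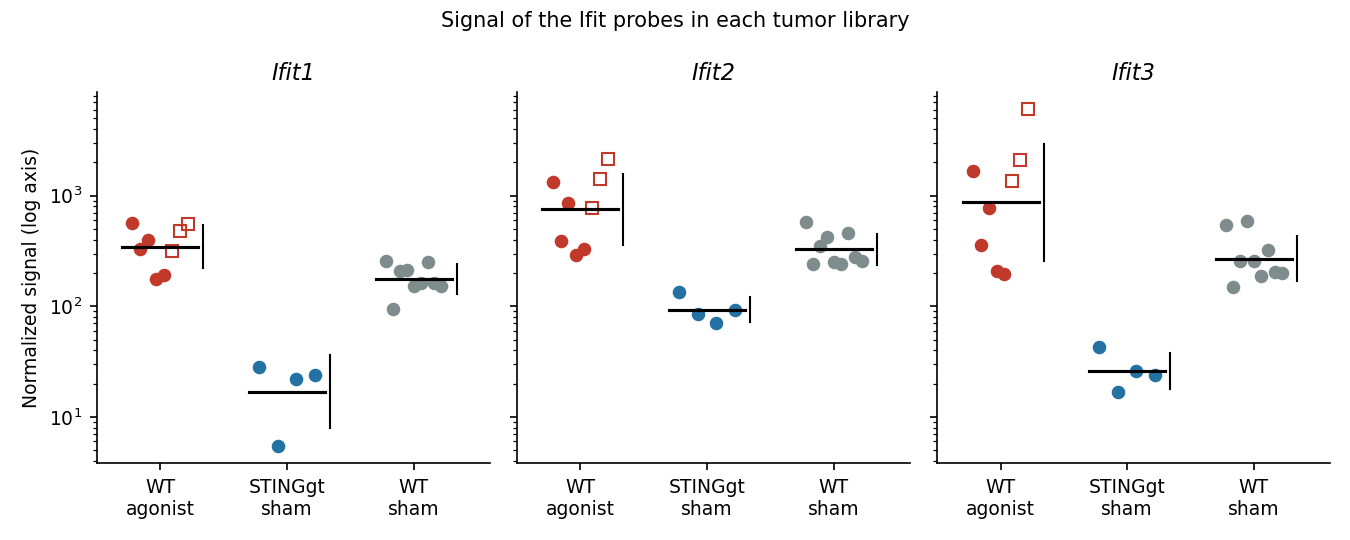
Normalized signal (log axis) of the Ifit1, Ifit2 and Ifit3 probes in each library, by group. Points are libraries, open squares the 3 agonist libraries deposited with 2 decimals, horizontal lines geometric means and vertical lines 1 geometric SD to either side. All 4 STINGgt sham libraries lie below all WT sham and WT agonist libraries for each gene.

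The comparison of STINGgt sham with WT sham tumors asks what loss of host STING does to these genes without added agonist. All 3 Ifit genes were lower in tumors of STING-deficient hosts, Ifit1 by 9.79-fold, Ifit3 by 10.1-fold and Ifit2 by 3.47-fold. Ifit3 and Ifit1 had the 2 lowest fold changes of the 689 probes tested.

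Ifit1 stood at 28.3, 5.41, 22.1 and 24.1 in the 4 STINGgt sham libraries. In WT sham libraries its lowest, median and highest values were 94.1, 163 and 259. The groups did not overlap, and the highest STINGgt sham value lay well below the lowest WT sham value. The mean was 19.96 ± 10.0 in STINGgt sham (SD, n = 4) and 184 ± 53.5 in WT sham (SD, n = 9). Ifit1 fell by 3.29 on the log2(value + 1) scale (SE 0.38, 95% interval -4.08 to -2.51, limma adjusted p = 1.12e-05), which is 9.79-fold. It had the smallest p of the 689 probes tested. The value of 5.41 in replicate 2 was low even within its group, and 12.9% of the panel lay below it in that library.

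Ifit3 stood at 42.8, 16.9, 26.1 and 24.1 in STINGgt sham libraries. Its lowest, median and highest values in WT sham libraries were 151, 254 and 586. Again the groups did not overlap. The mean was 27.5 ± 10.97 in STINGgt sham (n = 4) and 300.5 ± 158 in WT sham (n = 9). The fall of 3.33 (log2, SE 0.67, 95% interval -4.71 to -1.94, limma adjusted p = 0.0054), 10.1-fold, ranked 1 of 689 by size and that of Ifit1 ranked 2, with the deposited scaling, with TMM scaling (a trimmed mean of log ratios between libraries) and with each library centred on its median probe.

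Ifit2 kept more signal, with 134.5, 85.9, 71.1 and 92.9 in STINGgt sham libraries. Its lowest, median and highest WT sham values were 239, 281 and 579. The groups did not overlap for this gene either. The mean was 96.1 ± 27.2 in STINGgt sham (n = 4) and 343 ± 121 in WT sham (n = 9). Ifit2 fell by 1.79 (log2, SE 0.43, 95% interval -2.68 to -0.91, limma adjusted p = 0.0244), or 3.47-fold, and ranked 17 by size. This call was lost without WT sham replicate 1 (adjusted p = 0.0506) and without STINGgt sham replicate 2, 3 or 4 (adjusted p = 0.106, 0.114 and 0.0889), at falls between 1.66 and 1.79. It stood at limma adjusted p = 0.00189 with TMM scaling and at 0.000269 in a fit of only the groups compared. That last fit called 80 of 689 probes lower, against 19 in the main fit. The main fit shares its estimate of spread with the WT agonist libraries. The SD of Ifit2 on the log2 scale was 1.07 in WT agonist, 0.38 in STINGgt sham and 0.47 in WT sham libraries.

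All 3 members were called lower, against 2.76% of the 689 tested probes (3.34% with TMM scaling and 2.47% with library median centring, where the members were also called). All 3 had groups that did not overlap, against 5.66% of probes lower in every STINGgt sham library. The median fold change of all tested probes was -0.28 on the log2 scale, and with library median centring the members stood at -2.89 (Ifit1), -1.39 (Ifit2) and -2.92 (Ifit3). No probe was called higher under the deposited scaling (limma, 64 probes with an unadjusted p under 0.05 in either direction). The deposited scaling gave 19 lower calls in all. Besides the members they were 15 genes of the interferon pathway lists and Cxcl5, a neutrophil chemokine named after its value was seen. With library median centring Cxcl5 was not called (limma adjusted p = 0.07). Nor were the pathway genes Bst2 (adjusted p = 0.0813), also named after its value was seen, and Stat2 (adjusted p = 0.118).

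**Figure D2:**
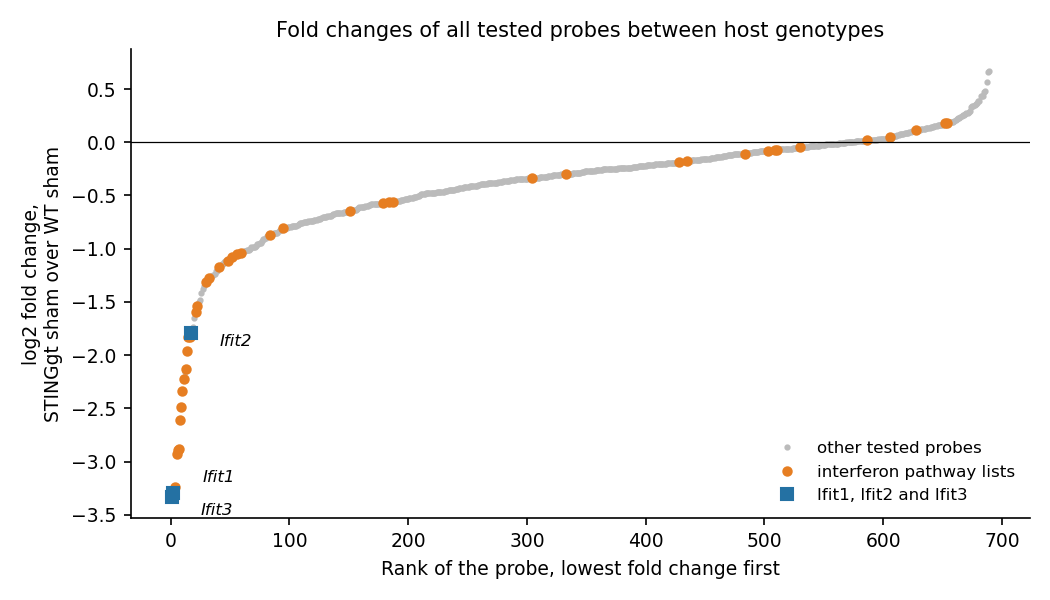
Log2 fold change of STINGgt sham over WT sham for the 689 tested probes, ordered from the lowest. Squares are Ifit1, Ifit2 and Ifit3 at ranks 2, 17 and 1, orange points the 42 tested genes of the interferon pathway lists, and grey points all others.

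The plain ratio of 2 probes within a library does not depend on the scaling between libraries, and it shows whether the members fell unequally. The log2 ratios tested here add 1 to each signal, which leaves some dependence on the scaling where values are low. The Ifit1 to Ifit2 ratio averaged -2.38 ± 0.95 on the log2 scale in STINGgt sham (SD, n = 4) and -0.88 ± 0.25 in WT sham (SD, n = 9). The difference of -1.50 had a two-sided exact permutation p of 0.0028 (adjusted p = 0.0121 over 9 ratio tests), and 4 of 4 STINGgt sham libraries lay below every WT sham library. The Ifit2 to Ifit3 ratio averaged 1.81 ± 0.37 in STINGgt sham and 0.27 ± 0.35 in WT sham, a difference of 1.54 with the same exact permutation p and adjusted p, and here 4 of 4 libraries lay above. Ifit2 thus fell less than both relatives. The exact permutation p of 0.0028 is the smallest that 715 splits allow two-sided, so it restates the full separation of the groups. Ifit1 and Ifit3 gave a difference of 0.04 between the groups (exact permutation p = 0.895). As plain ratios, Ifit2 over Ifit1 was 4.76, 15.9, 3.21 and 3.86 in STINGgt sham libraries and 1.47 to 2.58 in WT sham libraries. In STINGgt sham libraries 10% of the panel lay below levels of 4.06 to 6.00, so that the low Ifit1 value of replicate 2 sits near the foot of the panel. Without that library the Ifit1 to Ifit2 difference was -1.04, the least negative value when 1 library was left out.

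**Figure D3:**
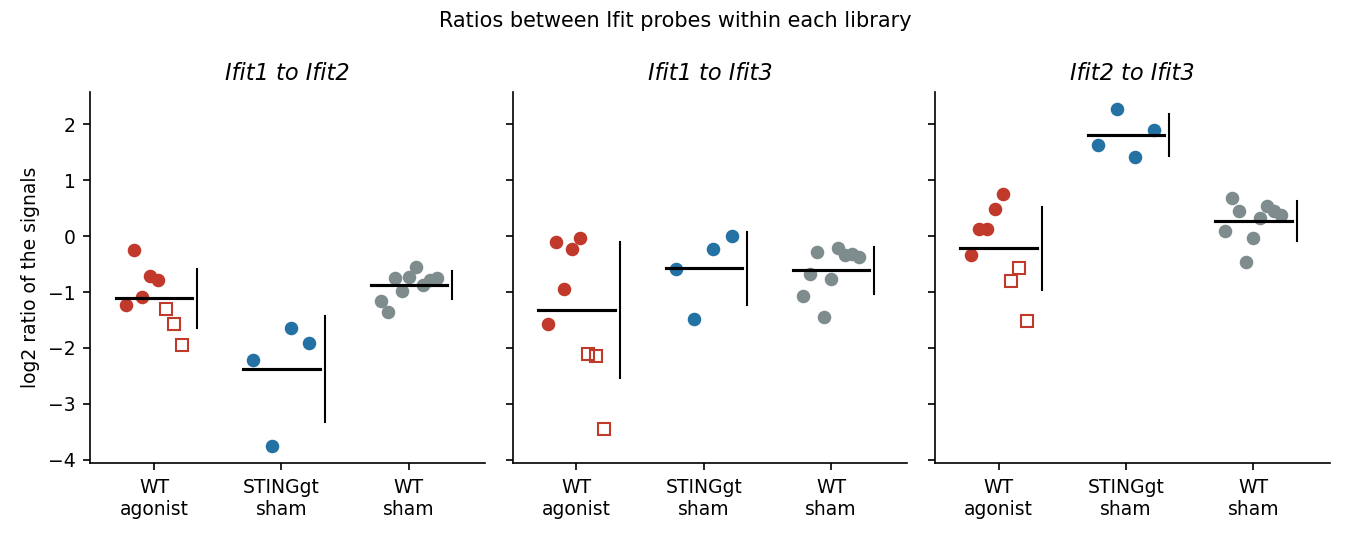
Log2 ratio of the signals (each plus 1) of 2 Ifit probes within each library, by group. Horizontal lines are means, vertical lines 1 SD to either side, and open squares the agonist libraries deposited with 2 decimals. The STINGgt sham libraries lie below all WT sham libraries for Ifit1 to Ifit2 and above them for Ifit2 to Ifit3, and overlap them for Ifit1 to Ifit3.

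Other genes of the interferon pathway were read by role. Among type I interferons and their receptor 0 of 5 tested genes were called in either direction, with a median of -0.57 against -0.28 for all probes. The receptor genes Ifnar1 and Ifnar2 stood at -0.08 ± 0.26 and -0.30 ± 0.27 (SE). Ifnb1, the interferon that IRF3 drives, averaged 4.32 ± 0.55 in STINGgt sham and 11.3 ± 5.12 in WT sham (SD). It did not pass (limma adjusted p = 0.63), in a fit whose spread includes the WT agonist libraries (SD 78.4). For Ifnb1 and Ifna1 all 4 STINGgt sham libraries lay below every WT sham library, as for 5.66% of tested probes. The Ifnb1 level in STINGgt sham is near the foot of the panel. Both genes were named after their values were seen. Of 9 genes from nucleic acid sensing to IRF activation 3 fell, namely Irf7, the interferon-induced amplifier of interferon transcription, by 2.89 (SE 0.54, limma adjusted p = 0.00247), the RNA sensor gene Ifih1 by 1.59 (SE 0.40), and Zbp1, a sensor of Z-form nucleic acid, by 1.83 (SE 0.49). Of 4 genes of ISGF3 and its kinases Stat2 fell, by 1.08 (SE 0.29, limma adjusted p = 0.0456), or 0.68 with library median centring (adjusted p = 0.118), while the kinase gene Jak1 stood at 0.02 ± 0.16.

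Interferon-stimulated effectors, the products that act on infection, held most of the calls. Of 22 tested 11 fell and 0 rose, with a median of -1.68. Ifi44 fell by 3.27 (SE 0.49), Rsad2, the antiviral enzyme viperin, by 3.24 (SE 0.51), Isg15, a ubiquitin-like modifier, by 2.93 (SE 0.47), and Cmpk2, a nucleotide kinase next to Rsad2, by 2.88 (SE 0.37, limma adjusted p = 2.98e-05). Of 3 feedback inhibitors Usp18, which removes ISG15 and blocks the interferon receptor, fell by 2.49 (SE 0.50), while Socs1 stood at 0.18 ± 0.22. These lists were assembled with earlier results of these data known.

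Markers of the cell types in the tumor did not pass in this comparison. Of 44 tested marker genes in 11 lists 0 were called higher and 0 lower (limma), against 2.76% of all tested probes called lower. At that share, 0 of 44 does not show that cell content was the same. The list medians lay between -1.07 (neutrophils) and -0.088 (macrophages and monocytes) on the log2 scale, against -0.28 for all probes. Ptprc, which marks leukocytes, ranged from 137 to 410 in STINGgt sham and from 234 to 465 in WT sham libraries. The summed signal of 6 macrophage and monocyte markers ranged from 1381 to 1708 in STINGgt sham and from 1452 to 2023 in WT sham libraries. That of 5 neutrophil markers ranged from 1426 to 2367 in STINGgt sham, with Camp and Ltf under 10 on average, and from 1856 to 8815 in WT sham. Its medians were 1470.5 in STINGgt sham and 3829.5 in WT sham. Their part in the Ifit result was not tested.

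The comparison of WT agonist with WT sham tumors asks what intratumoral agonist changed in hosts with STING. All 3 Ifit genes were called higher under the deposited scaling, but so was most of the panel, and the agonist tumors differed widely among themselves. Relative to the other probes of the same library the members did not pass.

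Ifit3 had the widest spread. Its lowest, median and highest values in WT agonist libraries were 196, 1070 and 6102, against 151, 254 and 586 in WT sham libraries. Replicates 1, 3, 6, 7 and 8 lay above the highest WT sham value, and replicates 2, 4 and 5 lay within the WT sham range. The mean was 1599 ± 1954 in WT agonist (SD, n = 8) and 300.5 ± 158 in WT sham (n = 9). Ifit3 was higher by 1.69 ± 0.54 (log2, SE, 95% interval 0.57 to 2.81, limma adjusted p = 0.0108), 3.22-fold.

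Ifit2 had a lowest, median and highest value of 290.4, 816 and 2142 in WT agonist libraries and of 239, 281 and 579 in WT sham libraries. The same 5 agonist replicates were above the WT sham range. It was higher by 1.20 ± 0.35 (95% interval 0.48 to 1.92, limma adjusted p = 0.00654), 2.30-fold, with means of 941 ± 649 in WT agonist and 343 ± 121 in WT sham.

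Ifit1 moved over a narrower range, with a lowest, median and highest value of 176, 366 and 563 in WT agonist libraries and of 94.1, 163 and 259 in WT sham libraries. Here 6 of 8 agonist libraries were above the WT sham range, replicate 2 being the further one. Ifit1 was higher by 0.97 ± 0.31 (95% interval 0.33 to 1.60, limma adjusted p = 0.00995), 1.96-fold. The means were 376 ± 150 in WT agonist and 184 ± 53.5 in WT sham.

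No member's groups were fully apart, and 1.16% of probes were higher in every agonist library than in any WT sham library. The 3 calls of 3 stand against 71.1% of all tested probes called higher, and the median probe was itself higher by 0.98 on the log2 scale. Ifit1 lay at that median, at rank 348 of 689 from the top, and Ifit2 and Ifit3 ranked 240 and 63. With library median centring the differences were 0.07 for Ifit1 (limma adjusted p = 0.858), 0.30 for Ifit2 (adjusted p = 0.386) and 0.78 for Ifit3 (adjusted p = 0.142), where 9% of probes were called higher. With TMM scaling they were 0.09, 0.31 and 0.80 (adjusted p = 0.811, 0.342 and 0.129), where 9.87% were. Without agonist replicates 6, 7 and 8 they were 0.77, 0.70 and 0.74 under the deposited scaling (adjusted p = 0.0962, 0.0986 and 0.178), with 0.435% of probes called higher. With median centring and without those libraries they were 0.14, 0.08 and 0.11 (limma adjusted p = 0.752 to 0.868), where 0 of 689 probes were called higher and 0 lower.

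**Figure D4:**
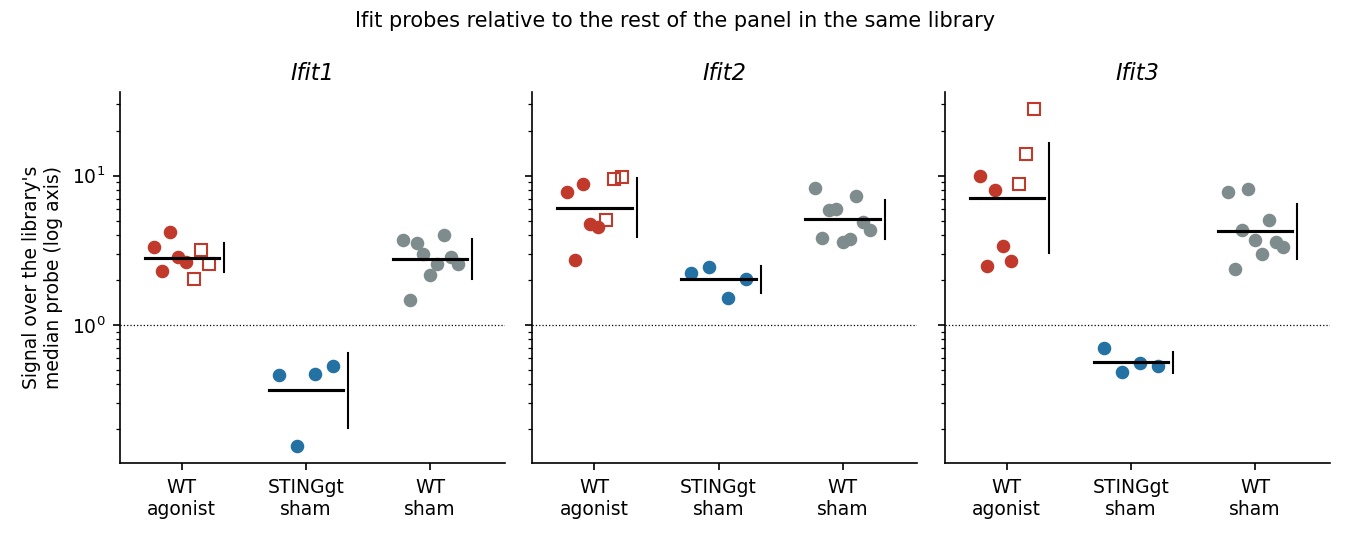
Signal of each Ifit probe divided by the median probe of the same library (log axis), by group. Horizontal lines are geometric means, vertical lines 1 geometric SD to either side, open squares the agonist libraries deposited with 2 decimals, and the dotted line marks the median probe. WT agonist and WT sham libraries overlap for all 3 genes, and Ifit1 and Ifit3 lie below the median probe in all 4 STINGgt sham libraries.

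Relative to the median probe, Ifit3 stood at 28.0, 14.1, 9.88 and 8.85 in agonist replicates 8, 7, 1 and 6. The WT sham libraries ranged from 2.36 to 8.17. Ifit1 in the same agonist libraries stood at 2.54, 3.19, 3.33 and 2.04, within its WT sham range of 1.47 to 4.00. The distance between the 2 genes was thus wider in some agonist tumors, which were singled out after their values were seen. Ifit3 over Ifit1 was 11.002, 4.41, 4.34 and 2.97 in agonist replicates 8, 7, 6 and 1, against 1.16 to 2.73 in WT sham libraries. In agonist replicates 5 and 2 it was 1.03 and 1.08, below the WT sham range. The group difference in this ratio did not pass. The Ifit1 to Ifit3 log2 ratio was -1.33 ± 1.22 in WT agonist (SD, n = 8) and -0.61 ± 0.42 in WT sham (n = 9), with an exact permutation p of 0.12 (adjusted p = 0.18). Without replicates 6, 7 and 8 the difference of -0.72 turned to 0.03.

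Most genes of the pathway lists were called higher under the deposited scaling in this comparison, and few with library median centring. Of 22 effectors 20 were called higher, with a median of 1.34, and 4 with library median centring. Gbp5, a guanylate binding protein, stood at 2.05 ± 0.47, Irf1 at 1.25 ± 0.25, Ifi44l at 1.47 ± 0.35 and Oas2, which makes the activator of RNase L, at 1.72 ± 0.41, and with centring at 1.15, 0.35, 0.57 and 0.81. Of the sensing genes 8 of 9 were called higher, among them Ifih1 at 1.45 ± 0.32, Irf7 at 1.65 ± 0.43, Zbp1 at 1.56 ± 0.40 and the kinase gene Ikbke at 1.29 ± 0.34. With centring 0 were called higher and 1 lower, namely Irf3 at -0.77 (limma adjusted p = 0.0182), named after its value was seen. The ISGF3 list was called higher in 4 of 4 genes (Stat2 at 1.002 ± 0.23) and in 0 with centring, where Jak1 was called lower. Interferons and their receptor were called higher in 4 of 5 genes (Ifna1, whose probe may count its near copies, at 1.21 ± 0.51) and feedback inhibitors in 3 of 3 (Socs1 at 0.66 ± 0.18), and neither list had a call with centring. Of 44 tested cell type markers 35 were called higher under the deposited scaling, where 71.1% of all probes were, and 9 were called higher and 1 lower with library median centring. Ptprc ranged from 322 to 3223 in WT agonist and from 234 to 465 in WT sham libraries, and the part of cell content in the Ifit values was not tested.

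The comparison of WT agonist with STINGgt sham tumors, which the series description names, sets tumors apart in both host genotype and treatment, whose effects cannot be told apart in it. It shares its libraries with the other comparisons. All 3 Ifit genes were higher in WT agonist tumors, and the groups did not overlap for any of them. Ifit3 was higher by 5.01 ± 0.68 (log2, SE, limma adjusted p = 1.70e-05), 32.3-fold, the first of 689 by size. Ifit1 was higher by 4.26 ± 0.39 (adjusted p = 1.58e-07), 19.2-fold, with the smallest p of the panel, and Ifit2 by 2.99 ± 0.44 (adjusted p = 3.67e-05), 7.96-fold. Of all probes 73.6% were called higher (19.3% with TMM scaling), 16.5% did not overlap in that direction, and the median probe was higher by 1.35. Without agonist replicates 6, 7 and 8, where 53.8% of probes were called, Ifit3 was higher by 4.07, Ifit1 by 4.06 and Ifit2 by 2.4955, each still called. The lowest WT agonist values were 176 for Ifit1, 290.4 for Ifit2 and 196 for Ifit3, and the highest STINGgt sham values were 28.3, 134.5 and 42.8. With library median centring, where 12.5% of probes were called higher, the differences were 3.71 for Ifit3, 2.95 for Ifit1 and 1.68 for Ifit2, each still called (adjusted p = 1.24e-05, 3.69e-07 and 0.000448). The Ifit2 to Ifit3 log2 ratio averaged -0.22 ± 0.74 in WT agonist and 1.81 ± 0.37 in STINGgt sham (exact permutation p = 0.00404, adjusted p = 0.0121). That p is the smallest that 495 splits allow two-sided. Ifit1 to Ifit2 averaged -1.11 ± 0.53 in WT agonist and -2.38 ± 0.95 in STINGgt sham (exact permutation p = 0.0121, adjusted p = 0.0273), a difference of 1.27 that did not pass without STINGgt sham replicate 1, 2, 3 or 4 (adjusted p = 0.0545 to 0.0818) and was 0.81 without replicate 2. Without agonist replicates 6, 7 and 8 these differences were -1.57 for Ifit2 to Ifit3 and 1.57 for Ifit1 to Ifit2 (exact permutation, adjusted p = 0.0357 for both). Of 22 tested effectors 22 were called higher under the deposited scaling, and 15 were called higher and 1 lower with library median centring. The 4 with the smallest adjusted p under the deposited scaling were Cmpk2 at 3.94 ± 0.37, Ifi44 at 4.57 ± 0.50, Isg15 at 4.28 ± 0.48 and Rsad2 at 4.58 ± 0.52.

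**Figure D5:**
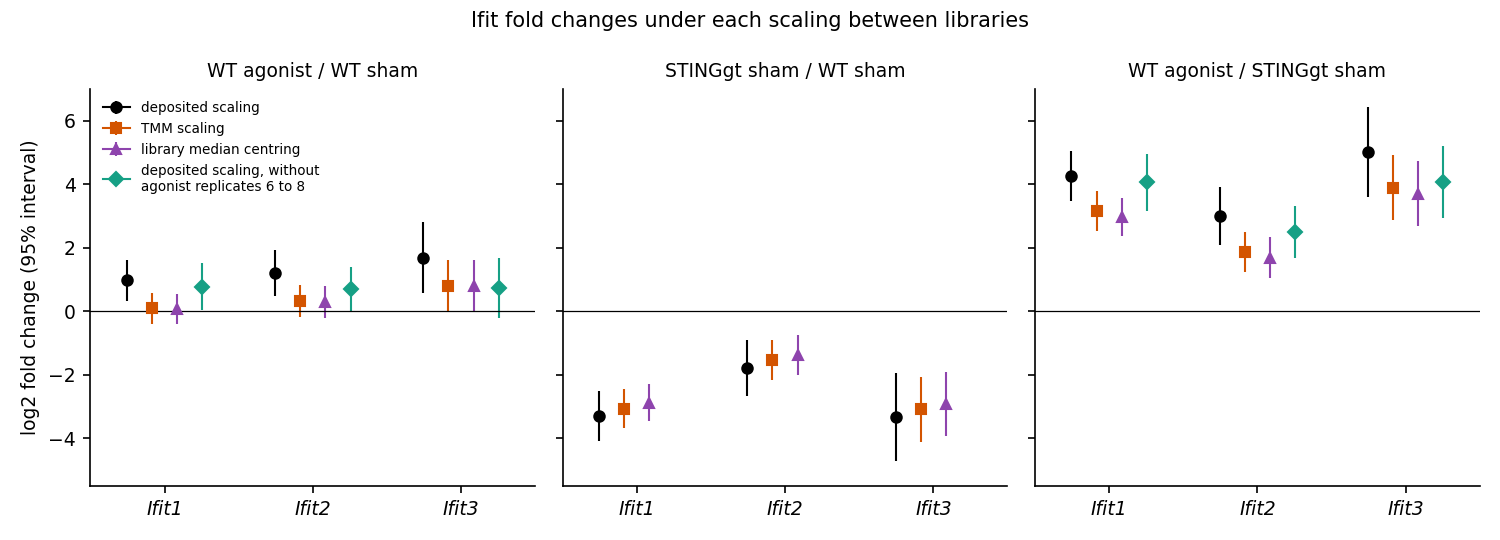
Log2 fold changes of Ifit1, Ifit2 and Ifit3 in the 3 comparisons, with 95% intervals from limma, under the deposited scaling, TMM scaling, library median centring, and, where agonist libraries enter, the deposited scaling without agonist replicates 6, 7 and 8. The falls in STINGgt sham tumors stay between -1.39 and -3.33 under these scalings, while the rises after agonist in wild-type hosts shrink to between 0.07 and 0.80 when libraries are rescaled.

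Within groups the members varied together to different degrees, on log2 values minus the library median. Among 9 WT sham libraries Ifit1 and Ifit2 had r = 0.84 and rho = 0.88 (exact permutation p = 0.00329 and 0.00308, adjusted over 6 pairs p = 0.0135 and 0.00923). Ifit2 and Ifit3 had r = 0.82 and rho = 0.77 there (exact permutation p = 0.00716 and 0.0214, adjusted p = 0.0143 and 0.0321), and Ifit1 and Ifit3 r = 0.72 and rho = 0.77 (exact permutation p = 0.0267 and 0.0214, adjusted p = 0.04 and 0.0321). Without the 2 libraries farthest from the median of the first gene these r were 0.93, 0.76 and 0.65. Among 8 WT agonist libraries Ifit2 and Ifit3 had r = 0.88 and rho = 0.93 (exact permutation p = 0.00451 and 0.00223, adjusted p = 0.0135 and 0.00923, r = 0.83 without 2 libraries). Ifit1 did not pass there with Ifit2 (r = 0.63, rho = 0.52, exact permutation p = 0.0933 and 0.197, adjusted p = 0.112 and 0.236, r = 0.70 without 2 libraries) or with Ifit3 (r = 0.26, rho = 0.33, exact permutation p = 0.539 and 0.428, adjusted p = 0.539 and 0.428, r = 0.50 without 2 libraries).

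The 5 agonist libraries that remain without replicates 6, 7 and 8 are too few for a correlation.

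Leaving out the members themselves, the 5 probes most like each member over all 21 libraries, by Pearson's r on the same scale, were other interferon-stimulated genes. These r are given as a description, since the 3 groups stand apart. For Ifit1 they were Cmpk2 (r = 0.95), Isg15 (0.94), Ifi44 (0.92), Irf7 (0.91) and Rsad2 (0.90). For Ifit2 they were Usp18 (0.95), Ifi44 (0.94), Irf7 (0.94), Xaf1 (0.93) and Zbp1 (0.91). For Ifit3 they were Irf7 (0.96), Xaf1 (0.95), Usp18 (0.95), Isg15 (0.95) and Oas2 (0.95). Irf7 and Ifi44 thus stood among these 5 probes of both Ifit1 and Ifit2, and Irf7 among those of all 3 members. Between members r was 0.82 for Ifit1 and Ifit2, 0.84 for Ifit1 and Ifit3, and 0.94 for Ifit2 and Ifit3.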

How the data were processed

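RNA of whole tumors was counted on a NanoString panel of 750 endogenous probes in 21 libraries. The authors deposited a matrix of normalized signal values and 1 file per library, which equalled the matrix within its rounding to 1 decimal. Per the file headers the values are endogenous probes, while software, control probes, scaling set and genome build count as not given in the sources used here. In each library the values were multiples of a step (0.65 to 1.41), 99.6% to 100% of them within 0.1 of a whole step, with 256573 to 763976 steps per library. If 1 step is 1 molecule, Ifit1 in STINGgt sham libraries rests on 33, 8, 28 and 29 molecules. This could not be shown for every library, so no count model was run.

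Probes with at least 20 in at least 4 libraries were tested (689). Genes high in 1 group can pass this filter through that group. Values were taken as log2(value + 1), which understates changes of low genes, and fitted with limma 3.58.1 (R 4.3.3, eBayes with trend and robust, all 21 libraries, 1 mean per group), with Benjamini-Hochberg adjustment over probes within a comparison at 0.05. The fit was tested on simulated data for STINGgt sham against WT sham only, with every group given the spread of the WT sham libraries. Unequal spread between groups, as in the real data, was not simulated. Two-sided exact permutation tests over libraries (scipy 1.17.1) compared ratios of members, over 24310 (WT agonist and WT sham), 715 (STINGgt sham and WT sham) and 495 (WT agonist and STINGgt sham) splits. Genes named are the members, Tmem173, up to 4 per pathway list with the smallest adjusted p (or the 2 most abundant where fewer than 2 passed), and, members left out, the 5 probes most correlated with each member. The values of 1 gene that this rule names are not reported here. The members, lists and tests were chosen with earlier results of these data known. Alternatives were TMM scaling, library median centring, a pseudocount of 10, no filter, plain eBayes, only the groups compared, a replicate block and leaving out libraries.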

Additional observations from a re-analysis of the deposited data

Results flagged for a closer look

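Within groups of the 3 members and their ratios, 27 sets of values were searched with Dixon's ratio for a library far from the others, and chance flags about 1 in 20 such sets. Ifit3 in WT agonist replicate 8, at 6102, stood far above the next library at 2118 on the linear scale. Its gap was 0.675 of the group's range against a limit of 0.526, and it was not flagged on the log2 scale. Without that library Ifit3 was higher in WT agonist than in WT sham tumors by 1.28. Ifit1 in STINGgt sham replicate 2, at 2.68 on the log2(value + 1) scale, stood below the next library at 4.53, with a gap of 0.844 of the range against a limit of 0.829. Without it Ifit1 fell by 2.79 in STINGgt sham against WT sham tumors.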

How the results depend on the processing

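The fall of Ifit1 and Ifit3 in STINGgt sham against WT sham tumors, and the higher level of all 3 members in WT agonist against STINGgt sham tumors, kept direction and call under every alternative run. The other results changed as follows, and the cause was not tested.

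In WT agonist against WT sham tumors the members' calls were lost with TMM scaling (Ifit1 0.086, Ifit2 0.31, Ifit3 0.80), with library median centring (0.066, 0.30, 0.78), without agonist replicates 6, 7 and 8 (0.77, 0.70, 0.74), and with centring and without them (0.14, 0.075, 0.11). The last of these was chosen after seeing the data. Panel calls there numbered 490 higher and 5 lower, and 68 and 118 with TMM scaling, 62 and 128 with centring, and 3 and 0 without those 3 libraries (limma, 333 with an unadjusted p under 0.05). Lower calls numbered 2 with only the groups compared and 3 with the replicate block, and 2 to 9 with 1 library left out. Higher calls then numbered 433 to 539. The share of higher among all calls was 99.0%, and 36.6% with TMM scaling and 32.6% with centring.

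In STINGgt sham against WT sham tumors 19 probes were called lower and 0 higher. Lower calls numbered 11 with a pseudocount of 10, 80 with only the groups compared, 11 with the replicate block, and 8 to 22 with 1 library left out. Higher calls numbered 1 with centring and 2 with only the groups compared. Ifit2 lay between -1.97 and -1.66 with 1 library left out, and lost its call in 4 of 21 cases. The Ifit1 to Ifit3 ratio difference of 0.04 lay between -0.15 and 0.34 with 1 library left out. It was -0.02 without WT sham replicate 1, -0.07 without WT sham replicate 4, -0.08 without STINGgt sham replicate 3 and -0.15 without STINGgt sham replicate 4.

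In WT agonist against STINGgt sham tumors 507 probes were called higher and 4 lower. The counts were 133 and 133 with TMM scaling and 86 and 178 with centring. Lower calls numbered 0 with only the groups compared (limma), 2 with the replicate block, 1 without agonist replicates 6, 7 and 8, and 1 to 9 with 1 library left out. The Ifit1 to Ifit2 ratio difference was 0.78 with a pseudocount of 10 (exact permutation adjusted p = 0.0909) and 0.81 to 1.52 with 1 library left out. In WT agonist against WT sham tumors the Ifit1 to Ifit2 and Ifit1 to Ifit3 differences of -0.23 and -0.72 turned to 0.068 and 0.031 without agonist replicates 6, 7 and 8.

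Deviations of same-numbered libraries correlated at -0.20 to 0.29 in WT agonist and WT sham (2 of 8 pairs over 0.1), -0.16 to 0.61 in STINGgt sham and WT sham (2 of 4) and -0.08 to 0.19 in WT agonist and STINGgt sham (1 of 4). Since not every pair was over 0.1, the numbers were not taken as pairs. With the replicate block the members stood at 0.94, 1.16 and 1.63 (Ifit1, Ifit2, Ifit3) in WT agonist against WT sham, -3.31, -1.76 and -3.18 in STINGgt sham against WT sham, and 4.25, 2.92 and 4.81 in WT agonist against STINGgt sham tumors, with no change of call. The planned edgeR and DESeq2 alternatives were not run, since the values could not be shown to be whole counts in every library. Low signal limits Ifit1 in STINGgt sham replicate 2.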
